A study of Mus musculus with 6 samples.

Results

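The replication-dependent histone genes encode the bulk of the H1, H2A, H2B, H3 and H4 proteins that package newly copied DNA, and they lie in a few dense clusters in the mouse genome. They were taken here as every gene whose symbol begins with Hist1h, Hist2h, Hist3h or Hist4h, which gave 68 of the 24411 genes in the table. By the letter code in the symbol, 6 encode the linker histone H1, 18 encode H2A, 19 encode H2B, 12 encode H3 and 13 encode H4. The Hist1 cluster on chromosome 13 holds 54 of them, Hist2 on chromosome 3 holds 10, Hist3 on chromosome 11 holds 3 and Hist4 on chromosome 6 holds 1. The set includes the pseudogene Hist3h2bb-ps and the testis forms Hist1h1t, Hist1h2aa and Hist1h2ba. Total RNA was taken from Achilles tendons of 18-week-old mice on the C57BL/6 background. In the 3 Piezo1 GOF libraries, Scx-Cre, whose Cre recombinase is driven by Scx, a gene of tendon progenitors and tenocytes, is combined with an allele that raises the function (GOF) of Piezo1, an ion channel opened by mechanical force. The 3 WT libraries are labelled wild type, and the labels name no Cre or other allele in them. The Scx-driven Cre acts in cells of the tendon lineage, while each library holds RNA of the whole dissected tissue. No label states that each library is from its own animal, and p-values therefore measure the spread among samples that may differ for technical reasons alone.

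Transcripts of these genes accumulate in S phase, when DNA is copied, and fall away as it ends. Most are unspliced and end, without a poly(A) tail, just after a short RNA stem-loop that is bound by the stem-loop binding protein Slbp and cut with the help of the U7 small nuclear RNA. Some cluster genes are also known to give spliced or polyadenylated transcripts in cells that do not divide, and replacement histones such as those of H3f3a and H3f3b are made from polyadenylated RNA throughout the cell cycle. Tenocytes of an adult tendon divide rarely. Priming in the RamDA-seq kit used for these libraries does not depend on a poly(A) tail, so both kinds of histone transcript could be counted.

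Total counts lay between 8131527 and 17180856 per library, with WT replicate 2 the deepest. All tenocyte markers were high enough to test, and B and T cell markers took at most 0.000172% of counts. RNA of the 20 skeletal muscle marker genes, all tested, made up 7.33%, 2.78% and 6.70% of counts in Piezo1 GOF replicates 1 to 3 and 8.67%, 15.8% and 13.7% in WT replicates 1 to 3, without overlap. The 12 tenocyte markers made up 2.81%, 5.69% and 3.55% in Piezo1 GOF and 1.68%, 0.481% and 1.02% in WT, and 15 macrophage markers 0.0654% to 0.0935% in Piezo1 GOF and 0.0171% to 0.0279% in WT. Erythroid and marrow progenitor markers could be tested for 4 of 13 genes and made up 0.00251% to 0.00783% in Piezo1 GOF and 0.00106% to 0.00405% in WT. Endothelial markers (10 of 10 tested) made up 0.0639% to 0.0921% in Piezo1 GOF and 0.0765% to 0.167% in WT. The muscle, tenocyte and macrophage lists moved with genotype beside every comparison that follows, and their part in the histone values was not tested. In whole tissue, fewer cells of a type and less RNA per cell cannot be told apart.

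The stem-loop is what marks a transcript for the tail-less 3′ end, and its sequence is shown for 7 members with counts high enough to test, chosen so that each of the 5 forms found in tested members is there. The sequences were read from GENCODE transcripts on mm10 and are printed 5′ to 3′ on the gene's strand, with the 16 bases of the stem-loop in capitals and 5 bases of flank on either side.
Hist1h1c, chr13:23739507-23739532, plus strand: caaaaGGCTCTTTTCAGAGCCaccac
Hist1h2be, chr13:23585526-23585551, minus strand: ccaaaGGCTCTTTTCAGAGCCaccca
Hist2h2aa1, chr3:96246027-96246052, plus strand: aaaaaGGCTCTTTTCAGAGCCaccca
Hist2h2ac, chr3:96220413-96220438, minus strand: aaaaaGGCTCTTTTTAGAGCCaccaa
Hist1h4h, chr13:23531453-23531478, plus strand: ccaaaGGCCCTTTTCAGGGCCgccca
Hist1h4i, chr13:22040961-22040986, minus strand: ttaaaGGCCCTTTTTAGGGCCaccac
Hist1h4a, chr13:23760795-23760820, minus strand: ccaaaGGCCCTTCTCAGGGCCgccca

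The motif searched was GGNNNTNNTNANNNCC on the transcript strand after the stop codon, where N is any base. It was found in 46 of the 68 members, and the form of Hist1h1c, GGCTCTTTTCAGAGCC, stood in 26 of them across the H1, H2A, H2B and H3 classes. The H4 genes carried other stems, most often the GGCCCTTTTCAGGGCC of Hist1h4h, in 7 members. Within the first 100 bases after the stop codon, 26 of the 31 members with that much annotated sequence held a match (83.9%), against 141 of 19890 other protein-coding genes (0.709%). In 17 members the annotated transcript ends at or near the stop codon. No match was found in the 48 bases after the stop codon of Hist1h1a or the 37 of Hist2h3b. The others had too few bases to hold the motif. Hist1h2bc, the member with the most counts, had no match in the 742 bases annotated after its stop codon, and its annotated transcript is spliced from 2 exons. Hist2h2be, Hist1h2bq and Hist1h2br also had longer annotated 3′ ends with no match.

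Histone cluster RNA was a minor part of each library and came from few genes. The 68 members together took 0.0114%, 0.0142% and 0.00940% of counts in the Piezo1 GOF libraries and 0.0138%, 0.0173% and 0.0141% in the WT libraries. Hist1h2bc (an H2B gene), Hist2h2aa1 (H2A) and Hist1h1c (H1) were the top 3 in all 6 libraries and held 63.9% to 70.6% of the members' counts. Counts were found in all 6 libraries for 21 members and in none for 8, namely Hist1h1t, Hist1h2ah, Hist1h2ai, Hist1h2an, Hist1h3h, Hist1h4k, Hist1h4m and Hist3h2ba. A count of 0 allows up to 3 counts in a library, or 0.192 to 0.390 CPM (counts scaled to a common library total), for counting error only. Between 32 and 44 members had a count in a given library. After the filter on low counts 13 members remained for testing, 2 of H1, 3 of H2A, 3 of H2B, 5 of H4 and 0 of H3, and they held 86.6% to 94.7% of the members' counts. The other 55 reached at most 4.53 CPM in any library.

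**Figure D1:**
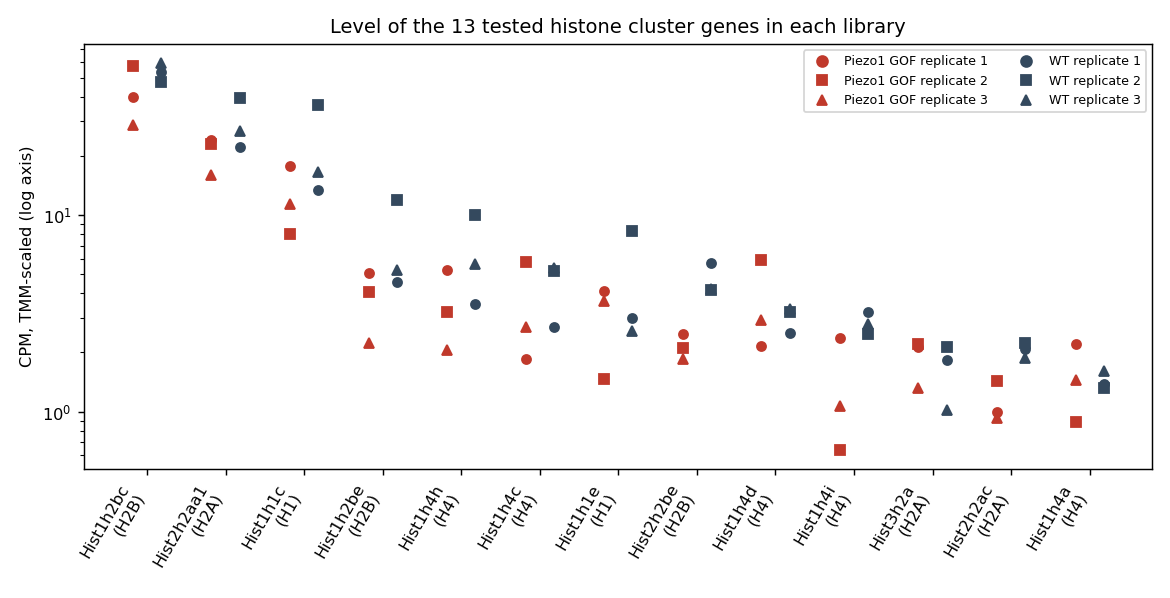
CPM (log axis, TMM-scaled) of the 13 tested members in each Piezo1 GOF and WT library, ordered by mean level, 1 point per library with the replicate shown by shape. Hist1h2bc lies above the other members in every library, WT replicate 2 is the highest library for 6 of the 13, and the genotypes are apart for Hist2h2be, Hist1h4i and Hist2h2ac.

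Per kilobase of annotated exon, Hist2h2aa1 (27.4 to 67.0 CPM per kb over the 6 libraries) and Hist1h2bc (24.9 to 51.3 CPM per kb) led, and their ranges overlapped. Hist1h1c (5.15 to 23.2 CPM per kb) and Hist1h4h (4.38 to 21.4 CPM per kb) followed, overlapping each other but neither of the leading pair. Hist1h4c reached 2.26 to 7.07 CPM per kb, which overlapped the lower end of the Hist1h1c range. These lengths come from GENCODE release 21, and the annotation used in the original counting is not given in the sources used here.

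Histone cluster counts came from genes with each kind of annotated 3′ end. The 4 members with a longer 3′ end and no stem-loop match held 35.4%, 46.8% and 35.3% of the members' counts in Piezo1 GOF and 47.3%, 28.0% and 40.8% in WT, nearly all from Hist1h2bc. The 23 members whose transcripts end within 100 bases after the stem-loop, Hist2h2aa1 and Hist1h4h among them, held 26.6%, 25.2% and 26.2% in Piezo1 GOF and 23.4%, 29.9% and 28.3% in WT. A further 23 members have a stem-loop but run on more than 100 bases past it, as Hist1h1c does by 840 bases, and these held 35.4%, 25.3% and 32.8% in Piezo1 GOF and 26.99%, 41.1% and 28.1% in WT. The 17 members annotated only to near the stop codon held 0.892% to 5.70%. WT replicate 2 had the smallest share in the 4 genes with a longer 3′ end and no match. It had the largest share in genes that run on past the stem-loop. Only annotated transcript sequence was searched for the motif. Counts per gene do not show which 3′ end a read came from.

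**Figure D2:**
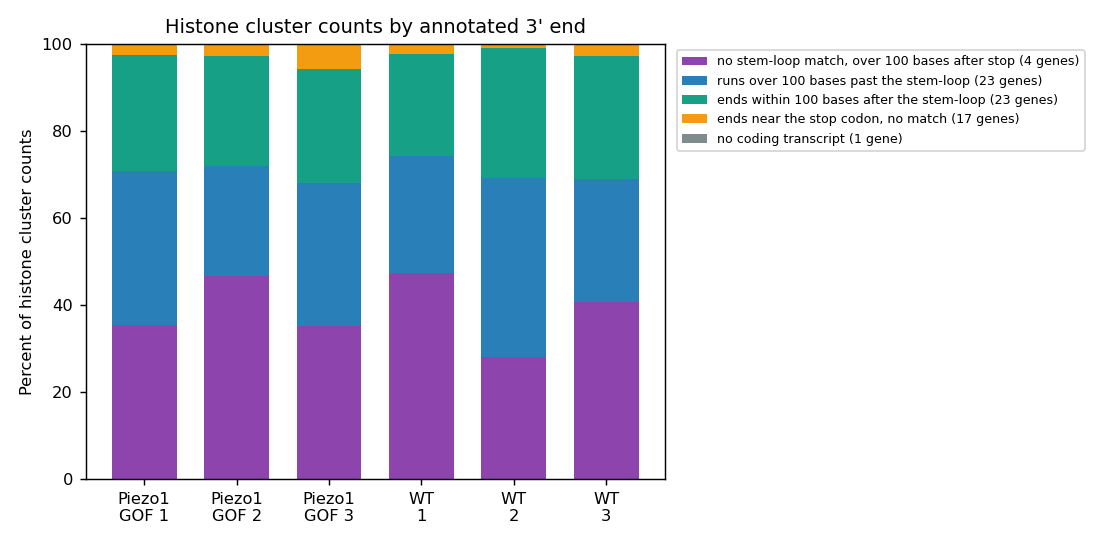
Percent of the members' counts (vertical axis) in each library by what the annotated transcript shows at its 3′ end. The 4 genes with a longer 3′ end and no stem-loop match take 28.0% to 47.3%. In WT replicate 2 genes that run on past the stem-loop take 41.1%.

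Most histone cluster RNA came from a single stretch of Hist1. The 54 Hist1 genes fall into 4 blocks separated by over 100 kb on chromosome 13. The block of 29 genes from Hist1h4h to Hist1h1a (23531050 to 23764406) held 8 of the 9 tested Hist1 members and 65.7% to 70.4% of all histone cluster counts in each library. The block of 18 genes from Hist1h2bl to Hist1h2br (21715763 to 21837530) held 0 tested members and 1.92% to 5.92% of counts, and 5 of its genes had a count of 0 everywhere. The 10 Hist2 genes, spread over 50.3 kb, held 22.6% to 26.6%.

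**Figure D3:**
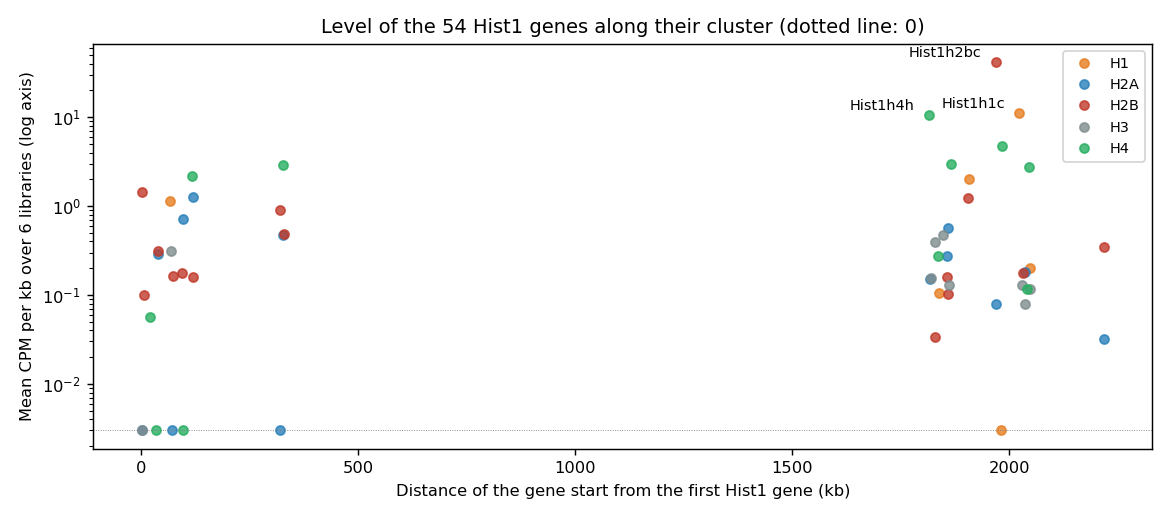
Mean CPM per kb over 6 libraries (log axis) of the 54 Hist1 genes against the distance of their start from the first Hist1 gene, coloured by class, with genes at 0 on the dotted line. The genes with the highest levels, Hist1h2bc, Hist1h1c and Hist1h4h, lie in the block that holds 8 of the 9 tested Hist1 members.

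Some neighbours that share a promoter region were far apart in level. There were 14 pairs of members transcribed away from each other with under 1000 bases between their starts, 13 of them an H2A with an H2B gene. In the pair with the highest level, Hist1h2bc averaged 47.8 CPM over the 6 libraries and Hist1h2ac, which starts 251 bases away on the other strand, 0.194 CPM (41.3 and 0.0783 CPM per kb). In the only pair with both genes tested, 239 bases apart, Hist2h2be averaged 3.41 CPM and Hist2h2ac 1.59 CPM (1.30 and 3.06 CPM per kb). The region between Hist1h2bc and Hist1h2ac is shown because a stretch of 300 bases holds the starts of both genes. It is the RefSeq promoter window of Hist1h2ac on GRCm38.p6 (chr13:23683910-23684209, minus strand), it holds the annotated start of Hist1h2bc, and capitals mark matches on either strand to the CCAAT box (as written), to the TATA box in the form TATAAA and to the octamer ATGCAAAT.
Hist1h2ac promoter: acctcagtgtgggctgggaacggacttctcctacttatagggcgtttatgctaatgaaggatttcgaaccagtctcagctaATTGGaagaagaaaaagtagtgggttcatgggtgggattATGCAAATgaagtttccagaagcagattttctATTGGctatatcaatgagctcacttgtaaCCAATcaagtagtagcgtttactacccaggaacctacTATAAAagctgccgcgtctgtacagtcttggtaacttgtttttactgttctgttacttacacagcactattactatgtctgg

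Promoter windows, each of 250 bases before and 50 from the start, were found for 61 of the 68 members. CCAAT stood in 52 of the 61 (85.2%) and in 37.8% of 26964 other promoters. All windows of H1 (6), H2A (17), H2B (16) and H3 genes (10) held it, and 3 of 12 H4 windows did. TATAAA stood in 57.4% of member windows against 14.1% of others. The octamer ATGCAAAT, the letters to which Oct-1 is known to bind in H2B promoters, was seen in 7 of 17 H2A windows and 6 of 16 H2B windows, in 0 of the H1, H3 and H4 windows, and in 1.71% of other promoters. The starts of an H2A and an H2B gene of a pair lay 173 to 306 bases apart, so the windows of a pair overlap. A match can then be counted for each gene of the pair, and the windows are not separate observations. All of these are matches of letters in a window, and they show no binding.

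Levels by class are best read as sums, because near-identical genes share reads. Of the members' nonzero values 83.8% were not whole numbers, against 12.2% for all other genes, as happens when reads that match several genes are divided among them. Summed per class, all 24 values for H1, H2B, H3 and H4 came within 0.03 of a whole number. The H2A sum did so in 1 of 6 libraries, and in 6 of 6 once H2afx and H2afj, H2A-type genes outside the clusters, were added, a combination chosen after the values were seen. Within that tolerance, class sums were whole where single members were not, so values of single members are less certain than those of their class. Coding sequences were identical in 5 pairs, Hist1h2ao with Hist1h2ap, Hist1h2bq with Hist1h2br, Hist1h4m with Hist1h4n, Hist2h2aa1 with Hist2h2aa2 and Hist2h3c1 with Hist2h3c2. Hist1h2bq and Hist1h2br were given the same count in each of the 6 libraries.

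H2B and H2A took most of the histone cluster RNA and H3 the least. H2B summed to 50.2, 66.3 and 36.5 CPM in Piezo1 GOF and 66.2, 68.4 and 73.5 CPM in WT. H2A gave 28.6, 30.2 and 20.8 CPM in Piezo1 GOF and 26.1, 46.5 and 37.7 CPM in WT. H4 gave 15.0, 18.5 and 11.2 CPM in Piezo1 GOF and 14.2, 26.5 and 21.8 CPM in WT. For both of these classes Piezo1 GOF replicate 3 was lowest and WT replicate 2 highest, and the genotypes overlapped. H1 summed to 23.5, 10.8 and 17.6 CPM in Piezo1 GOF and 18.3, 46.4 and 20.7 CPM in WT, where replicate 2 stood far above the rest. H3 reached 3.77, 3.31 and 1.93 CPM in Piezo1 GOF and 1.72, 2.36 and 3.39 CPM in WT, spread over 11 genes with counts. The H3 genes with the highest mean level were Hist2h3c1, at 1.63, 0 and 0 CPM in Piezo1 GOF and 0, 1.12 and 1.32 CPM in WT, and Hist1h3f, at 0.896, 1.04 and 0.101 CPM in Piezo1 GOF and 0.148, 0.0651 and 0.717 CPM in WT. With its identical copy Hist2h3c2 added, Hist2h3c1 came to 1.63, 0 and 0.235 CPM in Piezo1 GOF and 0.491, 1.12 and 1.92 CPM in WT. All members together came to 121, 129 and 88.0 CPM in Piezo1 GOF (113 ± 21.8, SD, n = 3) and 126, 190 and 157 CPM in WT (158 ± 31.9, SD, n = 3). The genotypes overlapped for the total and for each class, for H2B only through Piezo1 GOF replicate 2, which matched the lowest WT library. Fitted as class sums, the log2 fold changes (Piezo1 GOF over WT, ± SE) were -0.73 ± 0.41 for H1, -0.47 ± 0.26 for H2A, -0.45 ± 0.24 for H2B, 0.26 ± 0.50 for H3 and -0.49 ± 0.30 for H4, given as values without a test.

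**Figure D4:**
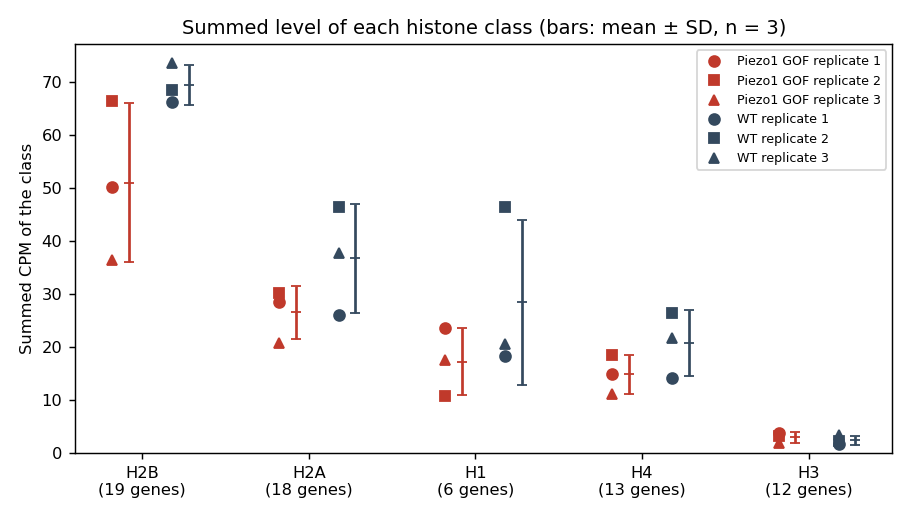
Summed CPM of each histone class in each Piezo1 GOF and WT library, with mean ± SD (n = 3) beside the points and the number of genes under each class. H2B is highest and H3 lowest in both genotypes, and the points of the genotypes overlap or nearly touch in each class.

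No member passed edgeR's test of Piezo1 GOF against WT. With p-values of the edgeR quasi-likelihood test adjusted over all 13466 tested genes by the Benjamini-Hochberg method (threshold 0.05), 0 of 13 members were called in either direction, where the background was 0.0149% of genes. At an unadjusted p under 0.05 the test gave 1 member, Hist2h2be, which was lower (7.69% of 13), against a background of 19.8% in either direction and 9.59% lower. Limma voom called 0 members (background 0.861%) and had 5 of 13 at an unadjusted p under 0.05, all lower (background 11.4% lower). The exact test of edgeR called 0 (background 5.12%, and 1.76% lower) and had 1 member, lower, at an unadjusted p under 0.05 (background 9.85% lower). DESeq2 called 1 member higher and 0 lower of the 26 to which it gave an adjusted p (background 5.98%, and 2.51% lower). The median log2 fold change of the 13 was -0.61, against -0.0045 for all tested genes, and 10 of 13 (76.9%) were below 0 against 50.3% of all genes. Without WT replicate 2 the median was -0.28. Members had to pass a filter on low counts to be in this median, which 12 of the 13 did in all 3 WT libraries and 10 in all 3 Piezo1 GOF libraries, so it describes these 13 and not the 68.

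Among the tested H2B genes, the most negative log2 fold change was that of Hist2h2be (ENSMUSG00000068854.7, chromosome 3, 96221119 to 96223738, plus strand of mm10), one of the longer transcripts without a stem-loop match. It was at 2.47, 2.11 and 1.85 CPM in Piezo1 GOF and 5.70, 4.15 and 4.19 CPM in WT, so every Piezo1 GOF library lay below every WT library. The log2 fold change was -1.13 ± 0.42 (SE; edgeR adjusted p = 0.201). Hist1h2bc (ENSMUSG00000018102.5, chromosome 13, 23684199 to 23692908, plus strand) was at 39.8, 57.6 and 28.8 CPM in Piezo1 GOF and 53.6, 47.7 and 59.3 CPM in WT. The libraries overlapped, with Piezo1 GOF replicate 2 within the WT range, and the log2 fold change was -0.35 ± 0.27 (edgeR adjusted p = 0.493). Leaving out Piezo1 GOF replicate 2 gave -0.62, and leaving out replicate 3 of that genotype gave -0.13. Hist1h2be was at 5.10, 4.04 and 2.23 CPM in Piezo1 GOF and 4.55, 11.99 and 5.28 CPM in WT, with a log2 fold change of -0.97 ± 0.50 (edgeR adjusted p = 0.307). WT replicate 2 stood above the other libraries, and without it the log2 fold change was -0.40. The annotated span of Hist1h2be runs across Hist1h1e on the same strand, so reads of these 2 genes may be mixed.

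Among H2A genes, Hist2h2aa1 (ENSMUSG00000064220.6, chromosome 3, 96245497 to 96246082, plus strand) was at 24.2, 22.9 and 16.1 CPM in Piezo1 GOF and 22.2, 39.2 and 26.7 CPM in WT (log2 fold change -0.49 ± 0.28; edgeR adjusted p = 0.350). Leaving out WT replicate 2 gave -0.22, and leaving out Piezo1 GOF replicate 3 gave -0.31. Its identical copy Hist2h2aa2 was listed at 0 in every library but WT replicate 3, where it had 40.02 counts. With the copies added, the pair had 24.2, 22.9 and 16.1 CPM in Piezo1 GOF and 22.2, 39.2 and 31.3 CPM in WT. The genotypes overlapped with and without the copy. Hist2h2aa1 overlaps Gm20634 on the same strand, and Gm20633 and Gm47313 on the other strand, so its reads may be mixed with theirs. Hist2h2ac was at 0.99995, 1.44 and 0.933 CPM in Piezo1 GOF and 2.07, 2.24 and 1.87 CPM in WT, with no overlap between genotypes (log2 fold change -0.86 ± 0.50; edgeR adjusted p = 0.361). It shares its promoter region with Hist2h2be, the other gene of that pair. Hist3h2a, the H2A gene of the chromosome 11 cluster, was at 2.14, 2.21 and 1.32 CPM in Piezo1 GOF and 1.83, 2.13 and 1.02 CPM in WT and had a log2 fold change of 0.16 ± 0.53 (edgeR adjusted p = 0.888), which turned in sign without WT replicate 3 (-0.085). It overlaps Trim17 on the same strand, so its reads are uncertain too.

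Both tested H1 genes, Hist1h1c and Hist1h1e, and Hist1h4h were highest in WT replicate 2. Hist1h1c (ENSMUSG00000036181.2, chromosome 13, 23738808 to 23740367, plus strand) was at 17.8, 8.03 and 11.4 CPM in Piezo1 GOF and 13.5, 36.3 and 16.5 CPM in WT (log2 fold change -0.85 ± 0.43; edgeR adjusted p = 0.304). Without WT replicate 2 the log2 fold change was -0.28. Hist1h1e was at 4.11, 1.46 and 3.64 CPM in Piezo1 GOF and 3.004, 8.34 and 2.56 CPM in WT (-0.61 ± 0.59; edgeR adjusted p = 0.592), and its sign turned without WT replicate 2 (0.14). Both linker histone genes overlapped between genotypes. Hist1h4h was at 5.23, 3.20 and 2.06 CPM in Piezo1 GOF and 3.54, 10.1 and 5.61 CPM in WT (-0.90 ± 0.51; edgeR adjusted p = 0.351). The genotypes overlapped here through Piezo1 GOF replicate 1, and the log2 fold change was -0.41 without WT replicate 2. Hist1h4i was at 2.36, 0.640 and 1.07 CPM in Piezo1 GOF and 3.20, 2.47 and 2.78 CPM in WT, without overlap (-1.12 ± 0.59; edgeR adjusted p = 0.319). Its value was -1.77 without Piezo1 GOF replicate 1, -0.75 without replicate 2 and -0.95 without replicate 3 of that genotype. Hist1h4c, Hist1h4d and Hist1h4a had log2 fold changes of -0.36 ± 0.53, 0.30 ± 0.49 and 0.06 ± 0.56. For Hist1h4c the value was -0.94 when Piezo1 GOF replicate 2 was left out and -0.075 when replicate 1 of that genotype was. The genotypes did not overlap for Hist2h2be, Hist1h4i and Hist2h2ac. That is 3 of 13 members (23.1%) lower in Piezo1 GOF, where 12.1% of all tested genes did the same. Hist2h2ac was over the filter on low counts in 1 Piezo1 GOF and 3 WT libraries, and Hist1h4i in 2 and 3. The 23.1% thus depends on a filter met in more WT than Piezo1 GOF libraries, and it describes these 13 only. Hist4h4, the single gene of its cluster, was too low to test, at 0.130, 0.201 and 0.148 CPM in Piezo1 GOF and 0, 1.79 and 0.339 CPM in WT.

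The member that DESeq2 called was Hist1h2ap, an H2A gene whose annotated transcript matches that of Hist1h2ao. Hist1h2ap had 5.04, 18.68 and 14.95 counts in Piezo1 GOF and 0 counts in every WT library (DESeq2 adjusted p = 0.00913). Hist1h2ao had 0 counts in every Piezo1 GOF library and 0, 4.45 and 15.84 in WT. The annotated transcripts of the pair were identical over all 452 aligned bases. Added together, they had 5.04, 18.68 and 14.95 counts in Piezo1 GOF and 0, 4.45 and 15.84 in WT, so that the genotypes overlapped.

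Compared with the replacement histones, the cluster genes supplied a small share of H3 RNA and a larger one of H1 and H2A. Per kilobase, cluster H3 genes summed to 3.59, 4.40 and 3.56 CPM per kb in Piezo1 GOF and 2.43, 2.35 and 2.73 CPM per kb in WT, or 2.06% to 3.23% of all H3 RNA with H3f3a, H3f3b and Cenpa, the centromeric H3, counted in. Those 3 genes summed to 108, 164 and 108 CPM per kb in Piezo1 GOF and 115, 80.7 and 90.9 CPM per kb in WT. Cluster H2A genes made up 43.3%, 38.1% and 33.6% of the H2A family in Piezo1 GOF and 40.4%, 55.5% and 48.3% in WT, beside H2afz, H2afv, H2afx, H2afj, H2afy and H2afy2. Cluster H1 genes made up 36.1%, 12.5% and 29.7% in Piezo1 GOF and 33.1%, 53.6% and 35.7% in WT, beside H1f0, the linker histone of cells that have stopped dividing, and H1fx. Piezo1 GOF replicate 2 had the lowest H1 share and WT replicate 2 the highest. These libraries also had the least and the most muscle marker RNA, in that order. Piezo1 GOF replicate 1 had less muscle marker RNA (7.33%) than WT replicates 1 and 3 (8.67% and 13.7%) but a higher H1 share than either. A relation was not tested.

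**Figure D5:**
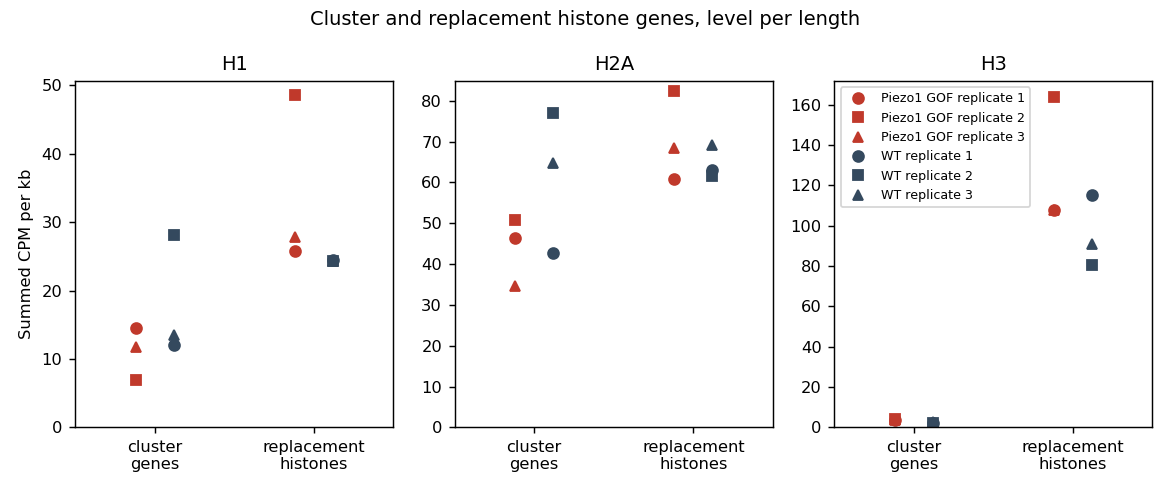
Summed CPM per kb of cluster genes and of replacement histone genes for H1, H2A and H3 in each Piezo1 GOF and WT library, each panel with its own axis from 0. For H3 the cluster genes reach at most 4.40 CPM per kb while the replacement genes reach 80.7 to 164 CPM per kb.

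No replacement histone passed edgeR's test either, where the background was 0.0149% of genes. Of 10 tested, 8 had a log2 fold change above 0 (median 0.29), where 50.3% of all tested genes were below 0. H3f3b was at 127, 235 and 117 CPM in Piezo1 GOF and 136, 91.5 and 80.4 CPM in WT (0.63 ± 0.33; edgeR adjusted p = 0.315). H1f0 was at 51.8, 96.7 and 56.6 CPM in Piezo1 GOF and 49.8, 49.6 and 49.5 CPM in WT, above every WT library (0.46 ± 0.26; edgeR adjusted p = 0.351). H2afy2, a macroH2A gene, had a value of 0.53 ± 0.39 (edgeR adjusted p = 0.474).

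Genes that make and process histone transcripts were detected, and 0 of 19 tested were called by edgeR (background 0.0149% of genes). Slbp, whose protein binds the stem-loops shown, was at 14.7, 20.3 and 12.2 CPM in Piezo1 GOF and 10.8, 11.5 and 11.4 CPM in WT (0.48 ± 0.26; edgeR adjusted p = 0.336), with no overlap. Symplekin (Sympk), a scaffold of the cleavage complex, was at 71.9, 27.3 and 56.3 CPM in Piezo1 GOF and 70.6, 215 and 110 CPM in WT (-1.35 ± 0.46; edgeR adjusted p = 0.184, DESeq2 adjusted p = 0.0426). Cpsf1, a subunit of the polyadenylation cleavage factor, had a log2 fold change of -0.34 ± 0.21 (edgeR adjusted p = 0.385). Of the 19, 11 had a positive and 8 a negative value, with a median of 0.095, where 50.3% of all tested genes were negative. Rnu7, the U7 RNA itself, was listed at 0 in every library. Among 19 tested histone chaperones and deposition factors 0 were called by edgeR (background 0.0149% of genes), with a median of -0.11. The 3 with the smallest p were Ipo4 (-0.56 ± 0.27; edgeR adjusted p = 0.289), Ubn1 (-0.42 ± 0.21; 0.303) and Nap1l4 (-0.37 ± 0.21; 0.355).

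Genes of S phase and division, whose activity normally runs alongside histone synthesis, did not pass the test and had mostly positive values. Of 36, 27 could be tested and 0 were called by edgeR (background 0.0149% of genes). Of these 27, 20 had a positive and 7 a negative log2 fold change, where 50.3% of all tested genes were negative. The median was 0.39. At an unadjusted p under 0.05 there were 2 higher (background 10.2%) and 0 lower (background 9.59%). They were Cdk2, a kinase of the G1 to S transition, at 8.84, 31.4 and 12.8 CPM in Piezo1 GOF and 9.56, 4.28 and 6.00 CPM in WT (1.43 ± 0.50; edgeR adjusted p = 0.188), and cyclin A2 (Ccna2) at 2.85, 1.40 and 4.71 CPM in Piezo1 GOF and 1.04, 0.199 and 1.29 CPM in WT (1.90 ± 0.77; edgeR adjusted p = 0.225). The genotypes overlapped for Cdk2 and lay apart for Ccna2. The helicase subunit gene Mcm6 was at 11.7, 3.91 and 8.53 CPM in Piezo1 GOF and 8.06, 19.9 and 19.1 CPM in WT (-0.97 ± 0.46; edgeR adjusted p = 0.281). The whole list took 0.0154%, 0.0241% and 0.0264% of counts in Piezo1 GOF and 0.0185%, 0.0167% and 0.0155% in WT. Piezo1 GOF replicate 3, which had the highest share of these genes, had the lowest share of histone cluster counts (0.00940%). Replicate 1 of that genotype had the lowest share of these genes, and its histone cluster share was 0.0114%. In replicate 2, with 0.0241% for these genes, the histone cluster share was 0.0142%. A relation between the lists was not tested.

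Other RNAs that lack a poly(A) tail gave values on both sides of 0. Of 13 listed, 6 were among the counted genes and 4 were tested. Of these 4, 0 were called by edgeR (background 0.0149% of genes) and 0 had an unadjusted p under 0.05 (background 19.8%). Rmrp, the RNA of the mitochondrial RNA processing ribonuclease, was at 94.1, 79.0 and 57.7 CPM in Piezo1 GOF and 68.1, 57.9 and 72.7 CPM in WT (0.22 ± 0.23; edgeR adjusted p = 0.628). Rpph1, the RNA of ribonuclease P, was at 61.0, 40.6 and 49.4 CPM in Piezo1 GOF and 48.8, 59.97 and 67.6 CPM in WT (-0.22 ± 0.23; edgeR adjusted p = 0.606). The spliceosomal Rnu12 had a value of 0.35 ± 0.80 (edgeR adjusted p = 0.833). The other tested RNA was Rn45s, the ribosomal RNA precursor (-0.13 ± 0.91; edgeR adjusted p = 0.953). The list, most of it Rn45s, took 13.3%, 6.44% and 11.7% of counts in Piezo1 GOF and 8.89%, 9.15% and 13.9% in WT. Each percent of counts given here rests on a total that includes it.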

How the data were processed

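The deposited table holds expected counts per gene for 6 libraries, not scaled for depth or length, as read from the values. Per the submitters' processing notes, the authors used bcl2fastq, STAR, RSEM and edgeR (versions and roles not given) on mm10. Which annotation and strand setting went into counting is not given in the sources used here. Counts were rounded, filtered by filterByExpr (edgeR, minimum count of 10), leaving 13466 of 24411 genes, and scaled by TMM (factors 0.897 to 1.10). Genotypes were compared with edgeR's two-sided quasi-likelihood test without covariates, adjusted by Benjamini-Hochberg over all tested genes (threshold 0.05). Precision is set by depth and by the dispersion between libraries (common value 0.113). All scripts with tests across genes were first tested on simulated counts. Libraries of a genotype differed by a chi-square of 38.7 to 133 per degree of freedom, so none was a copy.

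All 68 symbols matched GENCODE mouse release 21. Promoters are from RefSeq (GRCm38.p6), and the motif searches were chosen after the counts were seen. The members and gene lists were chosen with earlier results of these data known. Named members were any past the threshold, the 2 highest per class, the 8 with the smallest p and the highest of each cluster, and in other lists the 3 with the smallest p. Hist1h4a, Hist1h4d, Hist1h2ac, Hist1h2ap, Hist1h2ao, Hist2h2aa2 and the other members named for identity, detection or position were chosen after their values were seen. The alternatives were other scaling factors and filters, DESeq2, the exact test, limma voom, a replicate block, leaving out each library, and sums per class. Removing Rn45s and Lars2 was added later. Tools were edgeR 4.0.16, DESeq2 1.42.0 and limma 3.58.1 in R 4.3.3, with biopython 1.88 and pandas 2.3.3 in Python 3.11.15.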

Additional observations from a re-analysis of the deposited data

How the results depend on the processing

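Under the alternatives run, edgeR and limma voom called 0 members, and DESeq2 called 1 member (Hist1h2ap) and 1 gene of the related lists (Sympk). Without any 1 library the counts of called members and related genes were 0 and 0. Over all genes edgeR then called 228 without WT replicate 1 and 0 without each of the other libraries. Where 0 genes were called in all, a count of 0 members tells nothing particular to them. The median log2 fold change of the tested members was between -0.89 without WT replicate 3 and -0.28 without WT replicate 2. It was between -0.63 and -0.46 with other scaling, no filter, DESeq2, the replicate block or Rn45s and Lars2 removed. It was -0.47 for 5 class sums. No median was taken for limma voom, the exact test or the stricter filter. The log2 ratio of histone cluster shares of counts, -0.37 as reported, was between -0.53 and -0.23 without any 1 library and -0.49 on TMM-scaled totals. With library totals alone the median of all genes was 0.10, against -0.0045 as reported, and 0 genes were called in all. Of 162 values of 11 named members under the alternatives, 160 kept their direction and their side of the threshold, and 2 turned in sign, Hist1h1e without WT replicate 2 (0.14) and Hist3h2a without WT replicate 3 (-0.085, and 0.38 without WT replicate 2). Hist1h4a and Hist1h4d are not among these 11. The log2 fold change of Hist1h4d turned in sign with limma voom (-0.037, against 0.30 as reported). With the replicate number as a block 0 members and 0 genes in all were called, and the median of the members was -0.46. Libraries with the same number did not deviate together (correlations -0.21, -0.14 and -0.053), so the number was not taken as a pairing. Sums per class before the fit give no count of members. Low counts kept 55 members out of edgeR's test as reported, so nothing is said of their difference by that test. With no filter on low counts edgeR tested 60 members and called 0 of them, where 165 genes were called in all.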

Other observations

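The 5 genes outside the histone set whose log2 CPM followed the summed histone members most closely over the 6 libraries were Eif2b2, Gna11, Atp6v1e1, Cenpp and Naa25. They are the top of 13453 genes ranked by Pearson's r, of which 158 exceeded 0.9. The same 6 libraries, which differ in depth and muscle marker share, lie behind every gene, so the ranking is a description.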
